A study of Homo sapiens with 6 samples.

Results

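Simple epithelia build their keratin filaments mainly from *KRT8* and *KRT18*, together with *KRT7* and *KRT19*, and these 4 genes were examined in H226 cells beside *KRT80*, a keratin linked to advanced epithelial differentiation, and *MSLN*, which encodes mesothelin. The members were taken as the rows of the count table that carry these names, and all 6 were found among 17222 gene names. H226 is an established human cell line labelled as squamous lung carcinoma. The cells were transiently transfected either with the control antisense oligonucleotide ASO_CTRL or with ASO_LINC#3, which is directed against the lncRNA *SWINGN*, both at 50 nM, and were collected after 48 h. Each condition has 3 libraries, and no other treatment, allele or genotype distinguishes the groups in the labels. The knockdown rests on 1 oligonucleotide, the *SWINGN* transcript was not analysed here, and its depletion in these libraries was therefore not checked. All 6 libraries carry the label H226, although the study's methods speak of BJ cells for its RNA-seq.

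Keratins are intermediate filament proteins that polymerize as obligate pairs of an acidic type I chain and a basic type II chain. *KRT18* and *KRT19* encode type I chains, and *KRT7*, *KRT8* and *KRT80* encode type II chains, so a simple epithelial cell needs both classes for a stable filament. Mesothelin is a surface protein held by a glycosylphosphatidylinositol (GPI) anchor, made as a precursor that furin cleaves, and is known from normal mesothelium and from several carcinomas, where it binds the mucin MUC16. Squamous and basal epithelia are marked by other pairs, chiefly *KRT5* with *KRT14*, while mesothelial cells carry simple keratins along with vimentin, WT1 and calretinin.

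Reads counted on genes ranged from 3686828 to 10546786 per library, and ASO_LINC#3 replicate 3 had the fewest. That library also stood apart from its group: the chi-square per degree of freedom of its counts was 13.02 against ASO_LINC#3 replicate 1 and 14.0 against replicate 2, compared with 2.50 between replicates 1 and 2 and from 6.94 to 11.9 between control libraries. The members' changes and the counts, medians and called genes of the lists below are therefore given with and without ASO_LINC#3 replicate 3. The study states for its experiments in general that replicates were biological, while the labels of these libraries do not name separate cultures, and the p-values measure the spread between these libraries. Of 14660 genes tested with edgeR's quasi-likelihood test, 1107 (7.55%) passed both thresholds (adjusted p below 0.01, log2 fold change of more than 0.5 in size) and are referred to as called, 386 (2.63%) of them lower and 721 (4.92%) higher in ASO_LINC#3. Without ASO_LINC#3 replicate 3, 2614 of 15176 genes (17.2%) were called, 1186 (7.81%) of them lower and 1428 (9.41%) higher.

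*KRT18*, *KRT8*, *KRT7* and *KRT80* lie on chromosome 12 and *KRT19* lies in the type I cluster of chromosome 17, all given here on GRCh37. *KRT18* (chr12:53342655-53346690, plus strand) is the only type I keratin gene on chromosome 12 and adjoins its usual partner *KRT8* (chr12:53290971-53343738, minus strand), with which it overlaps on the opposite strand in the annotation. *KRT7* occupies chr12:52626304-52645970 on the plus strand and is overlapped there by *KRT86*, *KRT7-AS* and *KRT87P*, the last of which the table lists as *KRT121P*. *KRT80* occupies chr12:52562780-52585798 on the minus strand within the span of *LINC00592* on the other strand, *KRT19* occupies chr17:39679869-39684560 on the minus strand, and *MSLN* occupies chr16:810734-818865 on the plus strand. Whether the counting used strand is not given in the sources used here, so reads of overlapping genes could not be told apart.

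*KRT18* and *KRT8* have many processed pseudogenes that received reads, and their likeness to the parent genes bears on how the counts are read. Over the whole transcript *KRT18P11* is 95.9% identical to *KRT18* in its aligned bases and *KRT18P13* is 91.9% identical. Where a stretch of the length of 1 read is the same in both, the read cannot be assigned to either alone: 87 of 1339 windows of 75 bases along the *KRT18* transcript (6.50%) also occur without mismatch in at least 1 of 14 pseudogenes, and 322 of 1710 windows of *KRT8* (18.8%) occur in at least 1 of 12. For *KRT7*, *KRT19*, *KRT80* and *MSLN* 0 windows did, and counts of *KRT8* and *KRT18* are therefore the less certain ones.

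In ASO_CTRL the simple keratins were among the most abundant transcripts of H226 cells, while *KRT80* and *MSLN* were at moderate levels. Levels between genes are compared per kilobase of merged exons, as CPM per kilobase, where CPM are the reads of a gene scaled to a common library size by TMM. *KRT18*, the type I partner of *KRT8*, was at 1653 ± 49.2 (SD, n = 3) and ranked 39th of 12784 genes with a length. *KRT7*, a type II keratin of glandular and transitional epithelia and of mesothelium, was at 953 ± 77.0 (rank 75), and *KRT19*, the smallest keratin, lacking most of the tail domain, was at 876 ± 55.9 (rank 83). The control ranges of *KRT7* (901 to 1042) and *KRT19* (843 to 940) overlapped, so these neighbours were not separated beyond their spread. *KRT8* was at 172 ± 6.85 (rank 366), *KRT80* at 18.4 ± 1.05 (rank 2426) and *MSLN* at 11.2 ± 0.792 (rank 3418), against a median of 3.92 over all genes with a length.

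The same order of the 6 genes was found per kilobase of the canonical transcript, a divisor added after seeing the data, but the distances changed. *KRT18* was then at 3591 ± 107, *KRT7* at 2346 ± 189, *KRT19* at 1472 ± 93.9 and *KRT8* at 664 ± 26.4, and the control ranges of neighbouring genes no longer overlapped. *KRT8* moved most, because its annotated exons merge to 6881 bases while its canonical transcript has 1784. First-strand synthesis with dT oligos, stated in the labels, favours 3′ ends by an amount that was not measured here, and a level per length carries that limit.

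The next comparison asks how the members differed after transfection of ASO_LINC#3. All 5 keratins had lower means in ASO_LINC#3 than in ASO_CTRL and *MSLN* a slightly higher one, and of the 6 members 0 were called, beside 7.55% of all tested genes. DESeq2 and limma-voom also called 0, 2 members had an unadjusted p-value below 0.05 in edgeR's quasi-likelihood test (as did 32.4% of all tested genes), and the libraries of the groups overlapped for all 6, whereas 17.3% of all tested genes were lower without overlap and 18.8% higher. The ASO_LINC#3 libraries were split: in replicates 1 and 2 all 6 members lay below all 3 controls, as did 29.8% of all tested genes, while in replicate 3 *KRT8*, *KRT18* and *MSLN* lay above all 3 controls and *KRT7*, *KRT19* and *KRT80* within them. In bulk RNA, fewer cells expressing a gene and less RNA per cell cannot be told apart.

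*KRT18* was at 4962, 5246 and 5014 CPM in ASO_CTRL replicates 1, 2 and 3, and at 2916, 2875 and 5247 CPM in ASO_LINC#3 replicates 1, 2 and 3. Knockdown replicates 1 and 2 were well below the controls and replicate 3 was level with the highest control. The log2 fold change was −0.46 (SE 0.21, 95% interval −0.92 to −0.01), with an adjusted p of 0.149 in edgeR's quasi-likelihood test. Without ASO_LINC#3 replicate 3 it was −0.81 (SE 0.09), with an adjusted p of 8.07e-05 in the same test, and *KRT18* was called. In that fit 4 of the 6 members were called, beside 17.2% of all tested genes.

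*KRT8*, whose product pairs with that of *KRT18*, was at 1133, 1226 and 1192 CPM in the controls and at 768, 818 and 1244 CPM in ASO_LINC#3. Its pattern over the libraries was that of *KRT18*, with replicate 3 the highest of all 6. The log2 fold change was −0.33 (SE 0.17, 95% interval −0.71 to 0.05; edgeR adjusted p = 0.220), and without replicate 3 it was −0.58 (SE 0.10; edgeR adjusted p = 0.00117), past both thresholds.

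*KRT7* was at 3604, 4166 and 3669 CPM in ASO_CTRL and at 2420, 2175 and 3759 CPM in ASO_LINC#3. Replicate 3 lay inside the control range and the other knockdown libraries lay below it. The log2 fold change of *KRT7* was −0.45 (SE 0.19, 95% interval −0.87 to −0.04; edgeR adjusted p = 0.119), and −0.73 (SE 0.11; edgeR adjusted p = 0.000414) without replicate 3, where it was called. *KRT19*, the type I keratin of many simple epithelia, was at 1969, 1972 and 2197 CPM in ASO_CTRL and at 1357, 1220 and 2153 CPM in ASO_LINC#3, the same arrangement. Its log2 fold change was −0.38 (SE 0.19, 95% interval −0.80 to 0.05; edgeR adjusted p = 0.202), and −0.67 (SE 0.10; edgeR adjusted p = 0.000659) without replicate 3, where it was called as well.

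*KRT80* had the smallest spread in ASO_LINC#3. It was at 83.8, 75.02 and 81.6 CPM in the controls and at 66.6, 62.1 and 75.5 CPM in ASO_LINC#3, so replicate 3 exceeded only the lowest control. Its log2 fold change was −0.24 (SE 0.13, 95% interval −0.53 to 0.05; edgeR adjusted p = 0.243), and −0.32 (SE 0.11; edgeR adjusted p = 0.0460) without replicate 3, which was not called either way.

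*MSLN* had the widest spread of the 6 in ASO_LINC#3. It was at 29.6, 30.7 and 26.7 CPM in ASO_CTRL and at 18.2, 25.3 and 49.5 CPM in ASO_LINC#3, so that the knockdown libraries held both the lowest and the highest value. The log2 fold change was 0.06 (SE 0.30, 95% interval −0.59 to 0.72; edgeR adjusted p = 0.910). It turned to −0.42 (SE 0.16; edgeR adjusted p = 0.0669) without replicate 3, so these libraries give no direction for mesothelin.

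**Figure D1:**
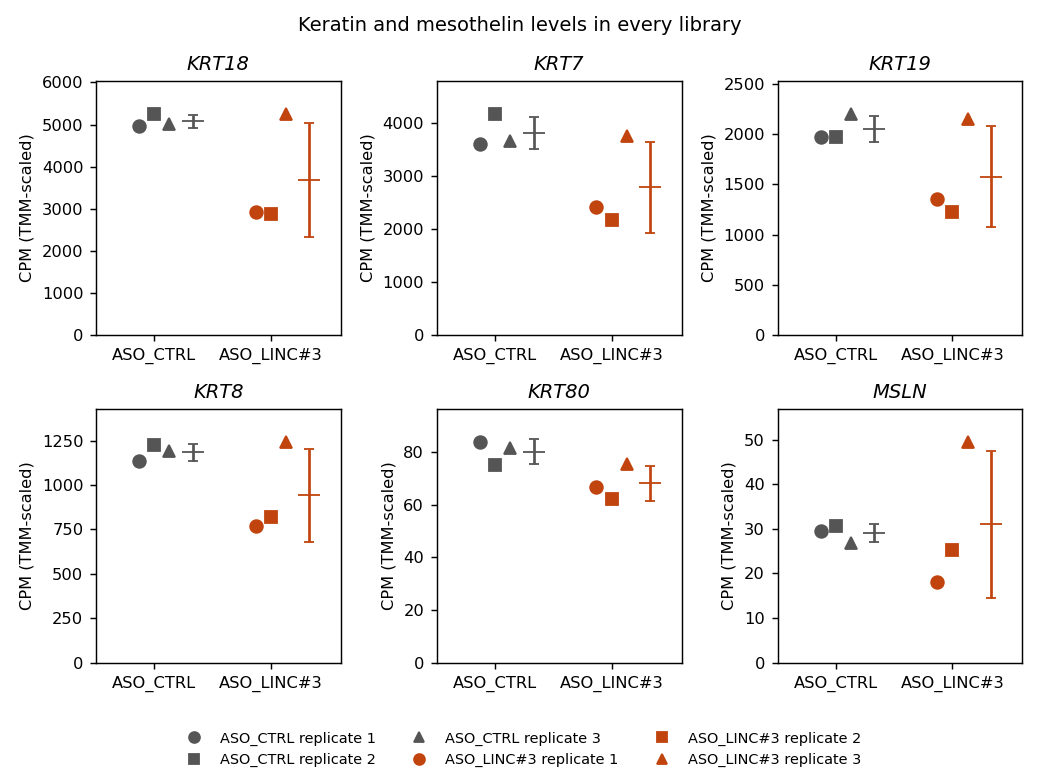
CPM (TMM-scaled, linear axes from 0) of the 6 members in the 3 ASO_CTRL (grey) and 3 ASO_LINC#3 (orange) libraries, with marker shape giving the replicate number and the bar beside each group its mean ± SD. ASO_LINC#3 replicates 1 and 2 sit below all controls in every panel, and replicate 3 sits at 5247 CPM for *KRT18* and 49.5 CPM for *MSLN*.

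ASO_LINC#3 replicate 3 carried more of every member than replicates 1 and 2. The ratio of its CPM to their mean was 1.81 for *KRT18*, 1.64 for *KRT7*, 1.67 for *KRT19*, 1.57 for *KRT8*, 1.17 for *KRT80* and 2.28 for *MSLN*. Among all tested genes, ordered by the log2 difference between replicate 3 and the mean of replicates 1 and 2, the 4 abundant keratins lay between percentiles 87.6 and 93.2, *KRT80* at 66.8 and *MSLN* at 98.0. When the trend of each library on GC content and transcript length was removed, replicate 3 lay below the control mean for all 5 keratins. Its log2 change was then −0.12 for *KRT18*, −0.25 for *KRT7*, −0.14 for *KRT19*, −0.13 for *KRT8* and −0.30 for *KRT80*. The corrected changes of *KRT18* in replicates 1 and 2 were −0.68 and −0.69, so the libraries still differed. With this correction the fold change of *KRT18* was −0.47 (edgeR adjusted p = 0.0427) and that of *KRT7* was −0.39 (edgeR adjusted p = 0.0287), and 0 of 6 members were called. *MSLN* kept its spread, with corrected changes of −0.43, 0.10 and 0.45.

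**Figure D2:**
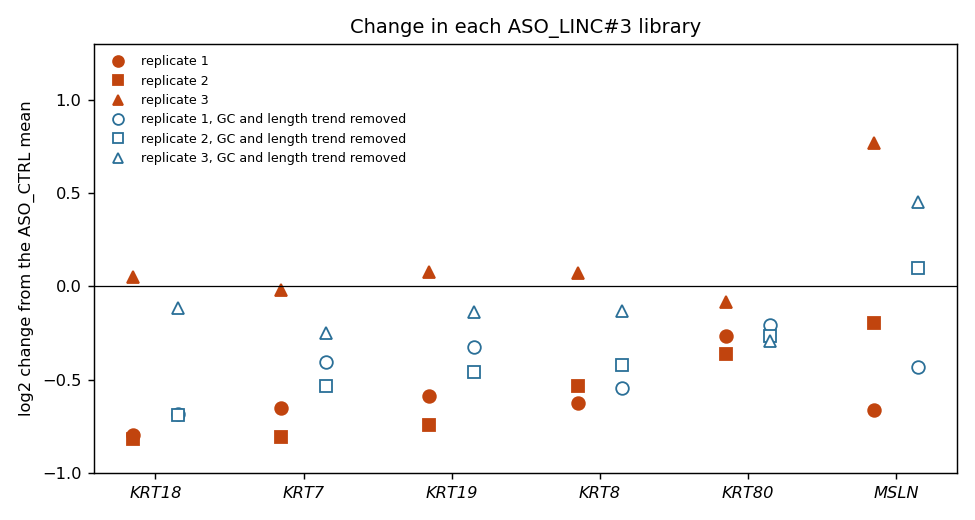
Log2 change of each member in ASO_LINC#3 replicates 1 (circles), 2 (squares) and 3 (triangles) from the mean of the 3 ASO_CTRL libraries, on log2 CPM (filled) and after removal of the GC and length trend of each library (open). After removal of the trend, replicate 3 lies between −0.30 and −0.12 for the keratins, and *MSLN* is spread on both sides of 0.

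Type I and type II keratin reads were compared as a ratio, since both chains enter 1 filament. The 5 keratins together took from 1.14% to 1.29% of the reads on genes in ASO_CTRL, and 0.757%, 0.721% and 1.25% in ASO_LINC#3 replicates 1, 2 and 3. The ratio of type I (*KRT18* plus *KRT19*) to type II (*KRT7*, *KRT8* and *KRT80*) reads was 1.44, 1.32 and 1.46 in the controls and 1.31, 1.34 and 1.46 in ASO_LINC#3. The mean log2 ratio differed by −0.04 between the groups, less than the spread within either of them (SD 0.08 in both), with a two-sided exact permutation p of 0.7, where 3 libraries against 3 cannot give less than 0.1. Leaving out ASO_LINC#3 replicate 3 gave −0.08. The sign of this difference turned when other keratins or pseudogene reads were added, so no direction is given.

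Over the 6 libraries, log2 CPM of *KRT7*, *KRT8*, *KRT18* and *KRT19* correlated with each other at Pearson r from 0.954 to 0.991, those of *KRT80* with the other keratins at 0.827 to 0.909, and those of *MSLN* with the keratins at 0.417 to 0.765. These points share libraries, depth and treatment, and the coefficients are descriptions. Among 10221 genes averaging 50 counts or more, the most similar to *KRT18* were *AKIP1*, *HSPB1P2* and *NOP9* (r from 0.997 to 0.999), and to *KRT8* *PTPN1*, *ANAPC15* and *OAZ2* (0.995 to 0.997). *KRT7* was most like *UBALD1*, *HSPB1P1* and *G6PC3* (each 0.998) and *KRT19* most like *RP11-730G20.2*, *NOC4L* and *COX4I1* (0.998 each). Genes close to *KRT80* included *VARS* and *SSBP4* (0.992 to 0.994), and *MSLN* ran closest to *FAM89B*, *H6PD* and *TCEAL3* (0.994 to 0.996). None of these named genes was itself called, beside 7.55% of all tested genes. Each was chosen for its likeness to a member that was not called, so this adds no separate result.

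The pseudogene rows did not follow *KRT18* in proportion. *KRT18* has 42 pseudogene rows in the table, and they took 25.1%, 25.2% and 25.5% of all reads on *KRT18* and its pseudogenes in ASO_CTRL, against 32.7%, 32.0% and 30.2% in ASO_LINC#3. The groups did not overlap, replicate 3 included, and the share went from 25.3 ± 0.237% to 31.6 ± 1.31% (SD, n = 3; two-sided exact permutation p = 0.1, the smallest this design allows). *KRT18P11* alone was at 466, 497 and 495 CPM in ASO_CTRL and at 407, 404 and 722 CPM in ASO_LINC#3, a log2 fold change of 0.07 (edgeR adjusted p = 0.846). Of the 35 *KRT18* pseudogenes tested 0 were called, and their median log2 fold change was −0.004 (−0.26 without replicate 3, where 3 were called), beside −0.003 over all tested genes (−0.018 without replicate 3).

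For the 18 rows of *KRT8* pseudogenes the share was 11.1%, 11.6% and 11.7% in ASO_CTRL and 12.2%, 12.1% and 11.98% in ASO_LINC#3. For the 3 rows of *KRT19* it was 3.73%, 3.90% and 3.56% against 4.92%, 4.198% and 5.06%. The groups did not overlap in either case, which leaving out replicate 3 cannot change. The two-sided exact permutation p over all libraries was 0.1 for each, the smallest this design allows. Of the 8 *KRT8* pseudogenes tested 1 was called, *KRT8P31*, which fell by 1.25 on the log2 scale (edgeR adjusted p = 0.00729), and 2 of 9 were called without replicate 3. The shares over all tested genes were 7.55%, and 17.2% without replicate 3. The call of *KRT8P31* was lost when any library but ASO_LINC#3 replicate 3 was left out (edgeR adjusted p up to 0.0467). When pseudogene reads were added to their parent genes, the log2 fold change of *KRT18* went from −0.46 to −0.34 (edgeR adjusted p = 0.266), that of *KRT8* to −0.32 and that of *KRT19* to −0.36. Whether these reads come from the pseudogenes or from the parent transcripts was not tested.

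**Figure D3:**
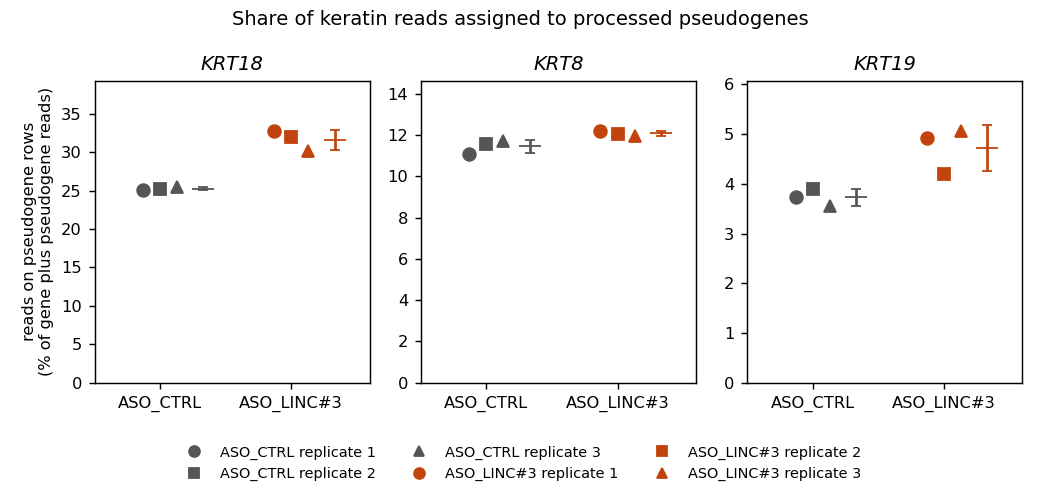
Reads on pseudogene rows as percent of the reads on the parent gene plus its pseudogenes, for *KRT18* (42 rows), *KRT8* (18) and *KRT19* (3), per library, with bars for the mean ± SD of 3 libraries and linear axes from 0. For *KRT18* the controls lie between 25.1% and 25.5% and the ASO_LINC#3 libraries between 30.2% and 32.7%.

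The squamous label of H226 could be checked only in part. Of 28 markers of squamous and basal epithelium 13 had a row, while *TP63*, *SOX2* and *KRT14*, which define that lineage, were not analysed here. The summed level of the list was 540 to 585 CPM in ASO_CTRL and 508 to 553 in ASO_LINC#3. The genes of this and the following lists that are named by level are those with the most reads, without regard to length, here *PERP*, a desmosome-associated p63 target (174 ± 4.89 CPM in ASO_CTRL), *KRT5*, the type II keratin of basal cells, and *BNC1*, a basonuclin transcription factor that mesothelial cells express too (98.6 ± 3.15). *KRT5* was at 94.2, 117 and 97.9 CPM in ASO_CTRL and at 66.4, 62.5 and 77.6 in ASO_LINC#3, without overlap, with a log2 fold change of −0.58 (edgeR adjusted p = 0.0192) and of −0.67 without ASO_LINC#3 replicate 3 (edgeR adjusted p = 0.00197).

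The squamous list had no common direction. Of its 13 rows 5 were higher and 4 lower in ASO_LINC#3 without overlap, beside 18.8% and 17.3% of all tested genes. The 5 include *KRT6A* and *CLCA2*, which did not pass the filter on low counts, whereas the shares cover tested genes only. Of 11 squamous markers tested 1 was called, the desmosomal cadherin *DSC3*, which fell by 0.88 on the log2 scale (edgeR adjusted p = 0.00571). The call was lost when any control or ASO_LINC#3 replicate 1 was left out (edgeR adjusted p up to 0.0367), and *DSC3* had −0.75 without ASO_LINC#3 replicate 3. Among the markers that were higher, and named after their values were seen, *IVL*, the cornified envelope protein involucrin, had a log2 fold change of 1.51 (edgeR adjusted p = 0.0471) and *SFN*, encoding the 14-3-3 protein sigma, of 0.56 (edgeR adjusted p = 0.0537). *IVL* had only 16, 10 and 18 reads in ASO_CTRL. Without ASO_LINC#3 replicate 3 the values were 0.89 for *IVL* (edgeR adjusted p = 0.0689) and 0.36 for *SFN* (edgeR adjusted p = 0.0474). *KRT6A*, a type II keratin of stressed epithelium, was also named after its values were seen and was not tested, with 0, 0 and 1 reads in ASO_CTRL and 14, 5 and 4 in ASO_LINC#3. The median of the list was −0.21, and −0.39 without ASO_LINC#3 replicate 3, where 2 were called. Calls over all tested genes were 7.55%, and 17.2% without that library.

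Markers of mesothelium, the tissue after which mesothelin is named, were covered by 18 rows of 20 genes, of which *KRT5* and *BNC1* are also in the squamous list. The summed level of those other than *MSLN* was 2750 to 2800 CPM in ASO_CTRL and 1683 to 1741 CPM in ASO_LINC#3, so that the groups did not overlap and replicate 3 lay close to the other knockdown libraries. Much of the sum came from *UPK1B*, a uroplakin also made by mesothelial cells, at 637 ± 69.5 CPM in ASO_CTRL, *CALB2*, encoding calretinin, at 600 ± 91.5, and *HEG1*, a mucin-like membrane protein, at 372 ± 16.7. *UPK1B* itself had overlapping groups and a log2 fold change of −0.16 (edgeR adjusted p = 0.418), and −0.09 without ASO_LINC#3 replicate 3. *CPA4* (0.02) and *GATA4* (0.04), named after their values were seen, were not lower. *WT1*, the transcription factor of mesothelial and kidney precursors, was at 45.9 ± 6.04 CPM.

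Of 15 mesothelial markers other than *MSLN* that were tested, 4 fell and 0 rose, beside 2.63% of all tested genes called lower, and their median was −0.47 beside −0.003. Without ASO_LINC#3 replicate 3, 7 of the 15 were called lower, beside 7.81% of all tested genes, and the median was −0.54. *CALB2* was at 587, 697 and 515 CPM in the controls and at 135, 118 and 208 CPM in ASO_LINC#3, and fell by 1.97 on the log2 scale (edgeR adjusted p = 0.000195), with −2.24 without replicate 3. *LRRN4*, a leucine-rich repeat membrane protein of mesothelium, was at 144, 139 and 144 CPM in ASO_CTRL and at 50.3, 44.1 and 48.1 in ASO_LINC#3, and fell by 1.58 (edgeR adjusted p = 3.30e-05), with −1.59 without replicate 3. All 3 knockdown libraries were below all controls for both genes, and both were called whichever library was left out.

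*HEG1* fell by 0.80, a call lost without ASO_CTRL replicate 3 (edgeR adjusted p = 0.0156). *ANXA8*, an annexin, fell by 0.82, a call that was kept only without ASO_LINC#3 replicate 3 (edgeR adjusted p up to 0.0359 in the other omissions). *UPK3B*, a uroplakin, had −0.92 (edgeR adjusted p = 0.0104) and *WT1* −0.32 (edgeR adjusted p = 0.212). Without replicate 3 the values were −0.74 for *HEG1*, −0.997 for *ANXA8*, −1.16 for *UPK3B* and −0.20 for *WT1*. *MSLN* was not called in either case.

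Of 20 markers of glandular and alveolar lung epithelium 5 had a row, with a summed level of 30.9 to 34.4 CPM in ASO_CTRL and 24.6 to 33.3 in ASO_LINC#3, and *NKX2-1*, *NAPSA* and *SFTPB* were not analysed here. *ABCA3*, a lipid transporter of lamellar bodies, was at 12.9 ± 1.74 CPM in ASO_CTRL and the mucin gene *MUC1* at 9.27 ± 0.818. Of the 5, 1 was called, the surfactant protein gene *SFTPD*, which fell by 2.37 on the log2 scale (edgeR adjusted p = 0.00250) from 6.86 ± 0.392 CPM. The call was lost when any control was left out (edgeR adjusted p up to 0.0140). The list had no common direction: its median log2 fold change was 0.28, and 0.13 without ASO_LINC#3 replicate 3. Of its 5 rows 2 were higher and 1 lower without overlap, beside 18.8% and 17.3% of all tested genes. The higher rows were *MUC1*, at 0.28 (edgeR adjusted p = 0.366), and *FOXA2*, named after its values were seen, at 1.06 (edgeR adjusted p = 0.0289). Without ASO_LINC#3 replicate 3, *SFTPD* had −2.71 and 2 of the 5 were called, both lower. Of all tested genes 2.63% were called lower, and 7.81% without that library.

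Of 20 epithelial adhesion genes 9 had a row, and *CDH1* and *EPCAM* were not analysed here. *ELF3*, an epithelial transcription factor, was at 70.4 ± 1.27 CPM in ASO_CTRL, *ESRP2*, a splicing regulator, at 32.4 ± 3.33 and *TJP1*, a tight junction scaffold, at 31.2 ± 0.323. Their log2 fold changes were −0.37, −0.78 and 0.26 (edgeR adjusted p = 0.0854, 0.0127 and 0.231). Without ASO_LINC#3 replicate 3 they were −0.28, −0.92 and 0.33. The list summed to 176 to 190 CPM in ASO_CTRL and 143 to 167 CPM in ASO_LINC#3. Its median log2 fold change was −0.29, and −0.08 without ASO_LINC#3 replicate 3. Of its 9 rows 3 were higher and 3 lower without overlap, beside 18.8% and 17.3% of all tested genes. The 1 called gene of that list was *CLDN4*, a claudin, which rose from 3, 1 and 5 reads in ASO_CTRL to 24, 17 and 9 in ASO_LINC#3. These are too few in the controls for a fold change. Its edgeR adjusted p was 0.00103, and 0.000542 without ASO_LINC#3 replicate 3. The call was lost without ASO_LINC#3 replicate 1 (edgeR adjusted p = 0.0101). Without ASO_LINC#3 replicate 3, 2 of the 9 were called higher and 1 lower. For all tested genes these shares were 9.41% and 7.81%, and 4.92% and 2.63% with all libraries.

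Genes shared with fibroblasts ranged from *VIM*, the vimentin of mesenchymal and mesothelial cells, at 2693 ± 120 CPM in ASO_CTRL to genes near 1 CPM, and 8 of the 12 rows were at 28.0 CPM or less. *VIM* was at 4782 ± 893 CPM in ASO_LINC#3 and rose by 0.83 on the log2 scale (edgeR adjusted p = 0.00363), and by 0.98 without ASO_LINC#3 replicate 3. The call was lost when any other library was left out (edgeR adjusted p up to 0.0253). *COL1A1*, the main fibrillar collagen chain, was at 320 ± 61.2 CPM and fell by 1.36 (−1.32 without replicate 3). *PDGFRB*, a growth factor receptor, fell by 1.53 (−1.60), and *LOX*, a collagen crosslinking enzyme, rose by 2.38 (2.50), and these 3 were called whichever library was left out.

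*COL3A1*, another fibrillar collagen chain, fell by 1.58 (−1.46 without ASO_LINC#3 replicate 3), a call lost without ASO_CTRL replicate 2 or 3 or ASO_LINC#3 replicate 2 (edgeR adjusted p up to 0.0175). *THY1*, a surface glycoprotein, was at 116 ± 8.67 CPM in ASO_CTRL and 104 ± 21.4 in ASO_LINC#3. Of 10 fibroblast genes tested 2 rose and 3 fell, with a median of −0.04 (−0.34 without ASO_LINC#3 replicate 3, again with 2 and 3). Of all tested genes 4.92% were called higher and 2.63% lower, and 9.41% and 7.81% without that library.

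**Figure D4:**
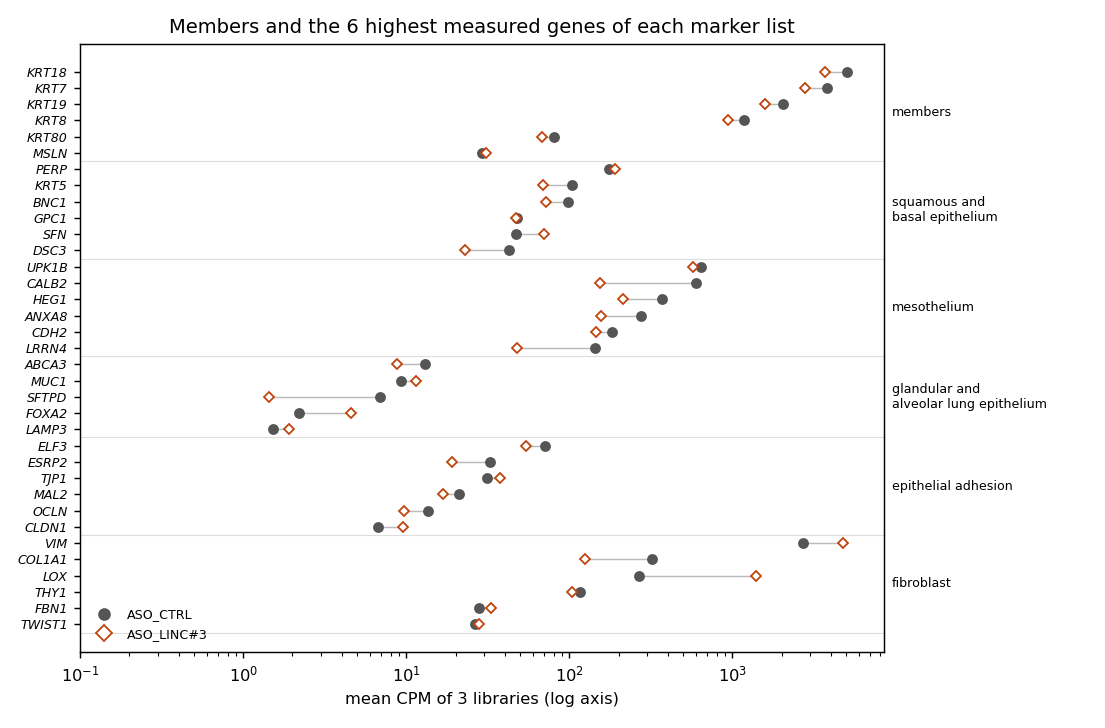
Mean CPM of 3 libraries (log axis, not divided by gene length) in ASO_CTRL (filled circles) and ASO_LINC#3 (open diamonds) for the 6 members and for the up to 6 genes with the highest control level in each of 5 marker lists. *KRT18*, *KRT7*, *KRT19* and *KRT8* have more reads than the other members in both conditions, the mesothelial genes *CALB2* and *LRRN4* drop from 600 to 154 and from 142 to 47.5 CPM, and the glandular genes stay below 13 CPM.

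Genes of the proteins that anchor keratin filaments changed in both directions. Of 17 linker and desmosome genes tested 1 rose and 2 fell, with a median of −0.03 (−0.30 without ASO_LINC#3 replicate 3, where 3 rose and 3 fell). Calls over all tested genes were 4.92% higher and 2.63% lower, and 9.41% and 7.81% without that library. *PKP2*, a plakophilin of simple epithelial desmosomes, went from 128 ± 20.3 to 51.5 ± 6.87 CPM and fell by 1.32 on the log2 scale (edgeR adjusted p = 0.000446), with −1.41 without replicate 3. *PPL*, the keratin-binding cytolinker periplakin, fell by 0.94 (−0.99 without replicate 3), and both were called whichever library was left out. *DSG2*, the desmosomal cadherin of simple epithelia, rose from 80.1 ± 4.74 to 155 ± 31.3 CPM, by 0.95 on the log2 scale (edgeR adjusted p = 0.00317) and by 1.11 without replicate 3, and its call was lost when any other library was left out (edgeR adjusted p up to 0.0205).

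The linker genes with the most reads in ASO_CTRL, without regard to length, were *MACF1*, a spectraplakin (314 ± 8.96 CPM), *PNN*, the keratin-binding nuclear protein pinin (182 ± 18.9), and *CAST*, the calpain inhibitor calpastatin, which is not itself a linker (178 ± 1.92). Of these 3, 0 were called with all libraries, and without ASO_LINC#3 replicate 3 *CAST* was called higher, at 0.52 (edgeR adjusted p = 0.00228).

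Of 8 other intermediate filament genes tested, 1 rose, *VIM*, and 0 fell, and that call was lost when any library but ASO_LINC#3 replicate 3 was left out. The median was −0.05, and −0.38 without ASO_LINC#3 replicate 3, where 1 rose and 1 fell. All tested genes were called higher at 4.92% and lower at 2.63%, and at 9.41% and 7.81% without that library. Of the nuclear lamins, *LMNA* was at 431 ± 19.5 CPM in ASO_CTRL and 394 ± 115 in ASO_LINC#3 (log2 fold change −0.13, and −0.40 without replicate 3). *LMNB2* was at 80.9 ± 3.73 and 59.3 ± 9.65 CPM (−0.45; edgeR adjusted p = 0.0549), and was the gene called lower without replicate 3, at −0.58 (edgeR adjusted p = 0.00219).

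Of the 7 other genes with a row whose names are KRT and a number alone, which leaves out *KRT6A* given above, 6 were tested and 0 were called, with a median of −0.39 (−0.50 without ASO_LINC#3 replicate 3). *KRT10*, the type I keratin of differentiated epidermis, was at 282 ± 32.6 CPM in ASO_CTRL and 333 ± 61.5 in ASO_LINC#3 (log2 fold change 0.24; edgeR adjusted p = 0.328). *KRT15* had a log2 fold change of 0.57, *KRT86* of −0.87, *KRT81* of −0.20 and *KRT4* of −1.22, all at levels below 11 CPM in both conditions and none with an adjusted p below 0.0693 in edgeR's quasi-likelihood test. Without ASO_LINC#3 replicate 3, 1 of these 6 was called, *KRT5*, beside 17.2% of all tested genes.

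Along the chromosomes, the tested genes from *KRT80* to *KRT18* and from *KRT10* to *KRT19* were described as well. These bounds are keratin genes with a row and need not be the ends of the clusters. On chromosome 12 (chr12:52562780-53346690) 9 genes were tested, 4 of them members, and 0 of the other 5 were called. On chromosome 17 (chr17:38974369-39684560) 6 genes were tested, and 2 of the 5 other than *KRT19* were called, both keratin-associated protein genes of the hair shaft family, which were chosen for mention after their values were seen. Over all tested genes 7.55% were called. *KRTAP2-3* had 33.6, 28.0 and 31.1 CPM in ASO_CTRL and 190, 204 and 192 CPM in ASO_LINC#3, and rose by 2.66 on the log2 scale (SE 0.13; edgeR adjusted p = 1.94e-06), and by 2.67 without ASO_LINC#3 replicate 3. ASO_LINC#3 replicate 3 lay between the other knockdown libraries for this gene. *KRTAP4-12* had 0, 1 and 1 reads in ASO_CTRL and 13, 13 and 11 in ASO_LINC#3, too few in the controls for a fold change, and its call was lost without ASO_CTRL replicate 3 (edgeR adjusted p = 0.0111).

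**Figure D5:**
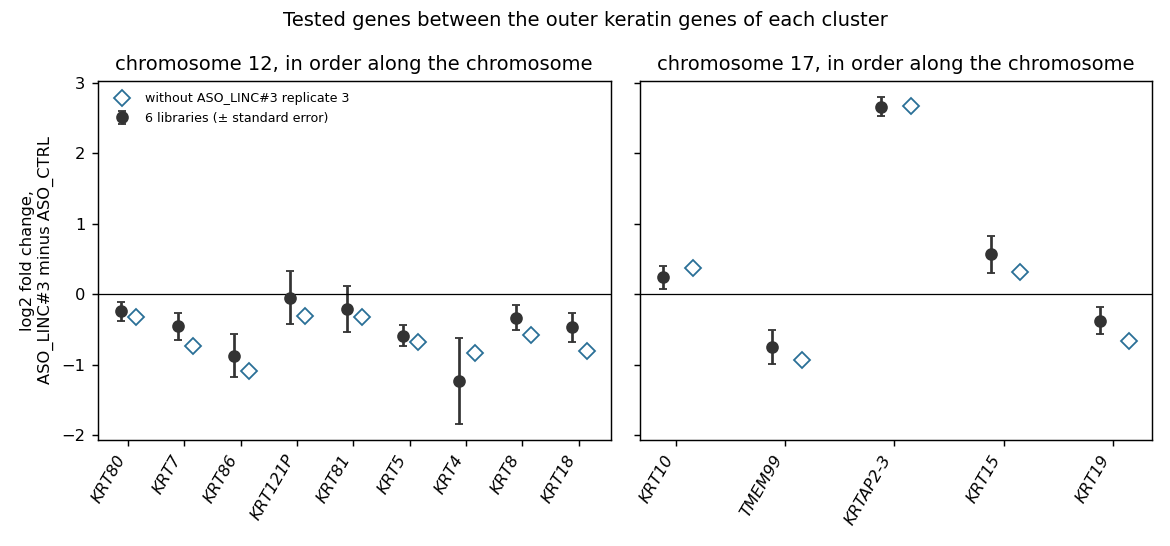
Log2 fold change (ASO_LINC#3 minus ASO_CTRL) with its standard error from all 6 libraries (filled), and without ASO_LINC#3 replicate 3 (open). Tested genes from *KRT80* to *KRT18* on chromosome 12 and from *KRT10* to *KRT19* on chromosome 17 are shown in chromosomal order and not to scale. *KRTAP4-12* is left out for its 0, 1 and 1 control reads; *KRTAP2-3* stands at 2.66 and the members lie between −0.46 and −0.24.

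Among genes of mesothelin processing and binding 8 were tested and 0 were called, with a median of 0.03 (−0.07 without ASO_LINC#3 replicate 3, where 1 was called). Of 9 rows 3 were higher and 3 lower in ASO_LINC#3 without overlap, beside 18.8% and 17.3% of all tested genes. The lower rows include *MUC16*, which was not tested. *PIGT*, a subunit of the transamidase that attaches GPI anchors, was at 137 ± 3.97 CPM in ASO_CTRL and 165 ± 22.8 in ASO_LINC#3, *BACE2*, an aspartic protease, at 136 ± 7.21 and 162 ± 17.2, and *ADAM17*, a sheddase, at 70.2 ± 0.344 and 78.5 ± 6.05.

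A further pair was named after the values were seen. *GPAA1*, of the same transamidase, was at 59.4 ± 2.09 CPM in ASO_CTRL and 36.2 ± 7.99 in ASO_LINC#3, without overlap, with a log2 fold change of −0.72 (edgeR adjusted p = 0.0129), and it was the gene called without ASO_LINC#3 replicate 3, at −0.91 (edgeR adjusted p = 0.000177). DESeq2, limma-voom and the GC and length correction each called 1 gene of this list. *MUC16*, the binding partner of mesothelin, had 9, 13 and 10 reads in ASO_CTRL and 2, 3 and 0 in ASO_LINC#3, did not pass the filter on low counts and was not tested.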

How the data were processed

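Total RNA of H226 cells was sequenced as single reads of 75 bases. The values the authors deposited are raw counts of reads for each gene name, neither normalized nor pooled, from alignments to hg19 made with STAR. How reads were counted, with which gene models and whether by strand, is not given in the sources used here. Reads in 4 rows that name no gene were left out. They made up 24.8% to 26.3% of the reads of an ASO_CTRL library and 27.9% to 28.1% of an ASO_LINC#3 library. The table holds 0 columns of other samples.

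Groups and replicate numbers were taken from the labels. Counts were scaled by TMM, kept by filterByExpr and compared with the quasi-likelihood F-test of edgeR 4.0.16 in R 4.3.3, with no block and Benjamini-Hochberg adjustment over all genes tested. The thresholds for a call were an adjusted p below 0.01 together with an absolute log2 fold change above 0.5. Log2 CPM of single libraries use a prior count of 2. Alternatives were DESeq2 1.42.0, limma-voom (limma 3.58.1), other scalings, filters, thresholds and dispersion, glmTreat, the replicate number as a block, a correction of each library for GC content and transcript length by splines of 5 degrees of freedom, and leaving out each library. Pseudogene reads added to their parents and canonical transcript lengths were added after seeing the data. The fit was tested on simulated data with known changes.

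Positions and lengths are from a GENCODE annotation lifted to GRCh37, which 13370 gene names matched directly and 970 through a synonym; its release need not be that of the authors. Transcript sequences of this annotation were compared in windows of 75 bases, and pseudogenes were aligned to their parents locally.

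The members and lists were chosen with earlier results of these data known. Named genes are the 6 members; of each list the 3 with the highest mean CPM in ASO_CTRL, up to 4 called genes with the smallest p and the defining markers; the other keratins tested; and for each member the 3 genes with the highest Pearson r. A gene that this rule names and a stretch of sequence are not reported here.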

Additional observations from a re-analysis of the deposited data

How the results depend on the processing

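The number of members past the thresholds was 0 under every alternative except 1: leaving out each library gave from 0 to 4, and the 4 came without ASO_LINC#3 replicate 3. Of all tested genes 17.2% were called without that library. Over the same omissions the log2 fold change ran from −0.73 to −0.30 for *KRT7*, −0.58 to −0.20 for *KRT8*, −0.81 to −0.31 for *KRT18* and −0.67 to −0.22 for *KRT19*, each lowest without ASO_LINC#3 replicate 3. *MSLN* ran from −0.42 to 0.35, and it turned to −0.0875 with limma-voom and −0.0215 with the replicate block. *KRT81* ran from −0.377 to 0.00982, the latter without ASO_LINC#3 replicate 2. Over all genes, 1107 calls became 2465 at an adjusted p below 0.05, 384 with glmTreat, 658 with the replicate block, 1691 with the GC and length correction, and 359 to 2614 when 1 library was left out, fewest without ASO_CTRL replicate 3 and most without ASO_LINC#3 replicate 3. Calls over all lists, 15, became 24 at an adjusted p below 0.05, 8 with glmTreat, and 8 to 26 with 1 library left out. Whether same-numbered libraries were made together is not given in the labels. Their deviations from the group means correlated at 0.06, −0.15 and −0.18, which with 3 libraries per group cannot decide it. The block on replicate number called 0 members. Levels in ASO_CTRL per kilobase of the longest transcript were 2346 for *KRT7*, 414 for *KRT8*, 2430 for *KRT18*, 1472 for *KRT19* and 20.6 for *KRT80*. Per kilobase of the canonical transcript they were 2346, 664, 3591 and 1472 for the first 4, 20.7 for *KRT80* and 13.2 for *MSLN*. The difference in the log2 ratio of type I to type II reads turned to 0.00895 with other keratins added and to 0.0530 with pseudogene reads added. The cause was not tested in any of these. *MSLN*, at 26.7 to 30.7 CPM in ASO_CTRL, is the least precise of the members (SE 0.30). ASO_LINC#3 replicate 3, with 3686828 reads, is the smallest library. It still held 19401 reads of *KRT18*, 13901 of *KRT7*, 7962 of *KRT19* and 4599 of *KRT8*.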
